A study of Mus musculus with 141 samples.

Results

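Akr1e1 and 9 genes of the Akr1c group (Akr1c6, Akr1c12, Akr1c13, Akr1c14, Akr1c18, Akr1c19, Akr1c20, Akr1c21 and Akr1cl) were followed through every library of the study, 10 of the 24423 genes in the files. The genes were taken by symbol and not by their values, and every one had a row in every file. Expression was measured by RNA-seq of liver, lung and kidney from 1 adult male mouse of each of 47 Collaborative Cross (CC) strains, recombinant inbred lines that mix the genomes of 8 founder strains. The mice were 8 to 12 weeks old, ate the NTP 2000 diet and had spent 6 hours a day on weekdays in clear-air chambers for 2 weeks, a handling that all 3 groups shared. Each tissue was thus a group of 47 libraries, and with 1 mouse per strain the difference between strains and the difference between mice cannot be told apart.

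Aldo-keto reductases reduce aldehydes and ketones with NADPH. Akr1e1 encodes the reductase of anhydrofructose, a sugar released when glycogen is broken down. The Akr1c enzymes of the mouse are mostly hydroxysteroid dehydrogenases or reductases of foreign carbonyl compounds, and are known from liver, kidney and steroid-responsive tissues, where they set the local level of active steroids.

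Of the Akr1c genes, 8 sat beside Akr1e1. In the GENCODE vM1 annotation of NCBIM37, the build to which the reads had been mapped, 9 of the members lay within 560.2 kb of chromosome 13 (chr13:4048257-4608420), in the order Akr1c14, Akr1c18, Akr1c13, Akr1c19, Akr1c12, Akr1c6, Akr1c20, Akr1c21 and Akr1e1. Akr1e1 was at the end of the row (chr13:4590003-4608420, minus strand), 4.22 kb from Akr1c21. Akr1cl was not part of the cluster: it was annotated on chromosome 1 (chr1:65059263-65079333, minus strand). Between coding sequences, Akr1e1 shared 55.7% to 60.2% of aligned bases with the other members, whereas Akr1c12 and Akr1c13 shared 96.2% and Akr1c6 and Akr1c20 92.3%.

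The 250 bases before the annotated start are shown for Akr1e1 and for the Akr1c12 and Akr1c13 pair, because the first gene varied alike in 3 tissues and the other 2 genes, near copies of each other, behaved in opposite ways in some strains. The sequences are those of C57BL/6J from RefSeq (GRCm38.p6), printed 5′ to 3′ on the strand of the gene: Akr1e1 chr13:4609165-4609414 (minus), Akr1c12 chr13:4279400-4279649 (minus) and Akr1c13 chr13:4190937-4191186 (plus). Capitals mark CG dinucleotides in Akr1e1, and in the other pair the bases that differ or have no partner when the 2 windows are aligned.
Akr1e1: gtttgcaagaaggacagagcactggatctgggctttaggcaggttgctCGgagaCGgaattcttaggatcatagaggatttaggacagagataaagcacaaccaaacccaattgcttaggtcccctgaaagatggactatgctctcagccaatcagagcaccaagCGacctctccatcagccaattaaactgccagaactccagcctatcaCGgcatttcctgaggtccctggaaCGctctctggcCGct
Akr1c12: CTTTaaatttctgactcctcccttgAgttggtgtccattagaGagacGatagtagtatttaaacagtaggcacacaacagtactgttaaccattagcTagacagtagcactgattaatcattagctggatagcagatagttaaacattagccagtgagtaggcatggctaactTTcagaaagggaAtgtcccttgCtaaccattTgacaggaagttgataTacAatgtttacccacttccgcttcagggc
Akr1c13: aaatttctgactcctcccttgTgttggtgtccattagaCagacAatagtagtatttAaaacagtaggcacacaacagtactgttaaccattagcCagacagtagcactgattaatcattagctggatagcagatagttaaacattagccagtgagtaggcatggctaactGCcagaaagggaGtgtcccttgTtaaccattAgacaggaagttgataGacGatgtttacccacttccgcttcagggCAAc
The Akr1e1 window held 6 CG dinucleotides, and 50.5% of all promoter windows in the table held at least as many. The windows of Akr1c12 and Akr1c13 matched at 235 of 246 aligned bases (95.5%) with 8 bases unpaired. Among the 9 members with a window, the next highest percentage was 67.0% for Akr1c13 and Akr1cl, at 134 of 200 aligned bases with 100 unpaired. Akr1c13 and Akr1c19 matched at 149 of 241 aligned bases (61.8%) with 18 unpaired. The order of these lesser matches thus depends on how gaps are placed. CG reads the same on both strands, so each site was counted once.

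Total counts ran from 1738046 to 42158454 per library, with a median of 10423382 in liver, 9338124 in lung and 8245850 in kidney. Lists of 8 liver, 6 lung and 6 kidney marker genes each had their highest sums in the labelled tissue in every library; 1 lung marker was at 0 throughout. Some libraries stood out from their own tissue in markers of another tissue. The liver markers summed to 673 and 566 CPM (counts scaled to a common library size with TMM factors) in the lungs of CC010 and CC015 against a lung median of 77.6, and the kidney markers summed to 1010, 942 and 398 CPM in the livers of CC035, CC033 and CC036 against a liver median of 39.3. Marker signal of another tissue was not confined to these libraries. The liver markers summed to 856 to 3804 CPM in kidneys (median 1871), and the kidney markers to 120 to 413 CPM in lungs (median 212). The liver of CC036 was also the shallowest library. In bulk tissue, fewer cells of a type and less RNA per cell cannot be told apart.

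The 10 genes had 3 kinds of tissue profile. In TPM (a relative level corrected for transcript length), Akr1c6 led in liver, Akr1c21 led in kidney, and Akr1c14 led in lung and was high in all tissues. Akr1e1 was of middle level everywhere and highest in kidney. Akr1cl was at 0 in nearly all libraries.

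**Figure D1:**
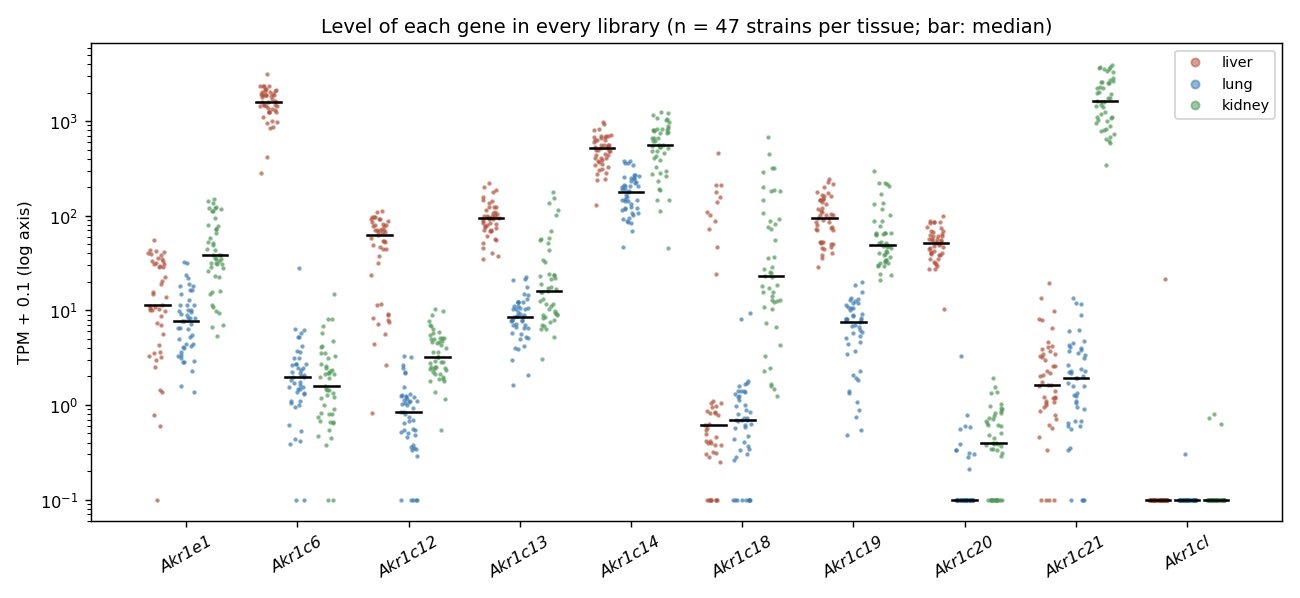
TPM plus 0.1 of each gene on a log axis, 1 point per library and 47 libraries per tissue, with the median as a bar. Akr1c6 stands out in liver (median 1595 TPM) and Akr1c21 in kidney (median 1645 TPM), while liver Akr1c12 and liver Akr1c18 each fall into 2 separate sets of points.

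Akr1e1 had 0 (lowest), 11.3 (median) and 55.7 (highest) TPM in liver, 1.27, 7.64 and 32.1 TPM in lung, and 5.31, 38.0 and 150 TPM in kidney. The means were 18.3 ± 15.1 TPM in liver, 9.46 ± 7.34 in lung and 53.4 ± 41.6 in kidney (SD, n = 47). All 3 ranges overlapped, yet kidney was above lung in each of the 47 strains when TMM-scaled CPM was compared within the mouse. By limma-voom with strain as a block, a paired fit over 12127 genes with Benjamini-Hochberg adjustment, Akr1e1 was 2.93 ± 0.09 log2 units higher in kidney than in lung (SE; adjusted p = 6.2e-54) and 2.33 ± 0.09 log2 units higher in liver than in lung (adjusted p = 2.1e-45, higher in 44 of 47 strains). Liver was 0.60 ± 0.09 log2 units below kidney (adjusted p = 5.2e-10, lower in 42 of 47 strains), which is short of the 1 log2 unit set for a call. The liver to lung difference depended on the scaling: it was 0.84 on total counts and 0.58 on log2(TPM + 1), where the median of all genes moved to -1.44 and -1.21.

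A call between tissues needed an adjusted p of at most 0.1 and a difference of 1 log2 unit or more. Of the 9 members tested (Akr1cl fell under the minimum of 1 CPM in 30% of libraries), 9 were called between liver and lung, all higher in liver, where 55% of all tested genes were called in either direction. Between liver and kidney 7 were called, 5 of them higher in liver, against 36.4% of all genes. Between lung and kidney 8 were called, all higher in kidney, against 46.1% of all genes. The lung to kidney call of Akr1c20, counted among the 8, rests on values at the floor and carries no weight. The gene was tested because of its liver values, and 45 of 47 lungs and 39 of 47 kidneys had 3 counts or fewer. Among the 9 liver to lung calls, those of Akr1c21 and Akr1c18 also rest on low values. Akr1c21, tested because of its kidney values, had 3 counts or fewer in 13 livers and 13 lungs, and Akr1c18 in 28 livers and 33 lungs. Akr1c12, among the 8 lung to kidney calls, had 3 counts or fewer in 31 lungs.

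The steroid enzymes differed in where they were found. Akr1c6, which converts estradiol and testosterone to their keto forms, had 285, 1595 and 3184 TPM in liver (lowest, median, highest), against medians of 1.87 TPM in lung and 1.48 TPM in kidney. Its liver values stood above every lung and kidney value, by 11.10 ± 0.13 and 10.81 ± 0.13 log2 units (limma-voom, adjusted p = 1.4e-92 and 1.0e-90). The 2 lungs with the most liver marker RNA, CC010 and CC015, were also the 2 highest for Akr1c6, at 6.52 and 5.98 CPM against a lung median of 0.626. The ratio of Akr1c6 to the summed liver markers had a median of 0.807% in lung and 1.26% in liver; the part of liver RNA in the lung values was not tested.

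Akr1c21, a hydroxysteroid dehydrogenase known from kidney, mirrored it. It had 343, 1645 and 3915 TPM in kidney, with medians of 1.53 TPM in liver and 1.84 TPM in lung, and kidney did not overlap with either. The differences were 8.86 ± 0.14 log2 units over liver and 10.29 ± 0.15 over lung (adjusted p = 4.0e-79 and 1.4e-83). Akr1c21 was highest among livers in CC033 (30.6 CPM) and CC035 (15.4 CPM), the livers with most kidney marker RNA, and its ratio to the summed kidney markers was 2.75% in liver and 2.83% in kidney; the part of kidney RNA was not tested. Its call between liver and lung (1.43 ± 0.14 log2 units) rested on such low values, and on log2(TPM + 1) the difference was -0.0055.

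Akr1c14, which acts on dihydrotestosterone and other androgens, was abundant in all tissues. It had 129, 516 and 975 TPM in liver, 46.9, 178 and 384 TPM in lung, and 46.1, 558 and 1252 TPM in kidney. Its liver values did not overlap with lung on the CPM scale (2.74 to 3.26 log2 units higher, the 95% interval, limma-voom adjusted p = 2.4e-40). Liver and kidney differed by 0.86 ± 0.13 log2 units, under the fold set for a call, with liver higher in 43 of 47 strains on TMM-scaled CPM. The TPM medians ran the other way (516 in liver, 558 in kidney), so the direction depended on the scaling.

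Akr1c13 and Akr1c19 fell from liver to kidney to lung. Akr1c13, a carbonyl reductase, had median levels of 94.5 TPM in liver, 15.8 in kidney and 8.51 in lung, and Akr1c19 95.2, 48.6 and 7.37 TPM. The liver was higher than the kidney by 2.97 ± 0.14 log2 units for Akr1c13 (adjusted p = 1.2e-38, 47 of 47 strains) and by 1.54 ± 0.13 for Akr1c19 (adjusted p = 2.1e-19, 46 of 47 strains). The lung was lowest for both, with kidney above it in 45 and 47 of 47 strains.

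Akr1c20 was a liver transcript. It had 10.2, 51.7 and 99.3 TPM in liver, whereas 45 of 47 lungs and 39 of 47 kidneys had 3 counts or fewer, so no fold is given for the last pair. Akr1c12 had a liver median of 62.8 TPM, against 3.13 in kidney and 0.74 in lung, and was higher in liver than in kidney in 47 of 47 strains. Akr1c18, the hydroxysteroid dehydrogenase that inactivates progesterone, had a kidney median of 23.2 TPM with a range from 1.15 to 680, and was at 3 counts or fewer in 28 livers and 33 lungs. In the fit it was 6.86 ± 0.63 log2 units higher in kidney than in lung (limma-voom adjusted p = 2.6e-18, 47 of 47 strains). Its liver to lung difference was 4.69 ± 0.63 log2 units, higher in liver in 35 of 47 strains, and 2.73 with DESeq2; its liver values were not of one kind, as described with the sets of strains. Akr1cl had 80 counts (21.6 TPM) in the liver of CC006 and no more than 3 counts in any other library.

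Akr1e1 was among the most variable genes between strains in each tissue. Over strains its log2 level had an SD of 1.49 (liver), 1.02 (lung) and 1.16 (kidney), and 98.7%, 96.8% and 97.9% of the genes that passed the level minimum had a smaller one. Akr1c6 and Akr1c20 varied less in liver, with SDs of 0.37 and 0.40, still above the median of all genes (0.33). Among the members over the level minimum in a tissue, which leaves out liver Akr1c18, Akr1c18 in kidney had the widest spread, with an SD of 2.24.

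The strain order of Akr1e1 was shared between tissues. After a rank inverse normal transformation of TMM-normalized TPM, Pearson's r over 47 strains was 0.84 between liver and lung, 0.79 between liver and kidney and 0.78 between lung and kidney, with Spearman's rho of 0.89, 0.85 and 0.86. Each of the 6 coefficients had a 2-sided permutation p of 1e-05, the smallest that 100000 resamples can give. With the 2 most extreme strains left out, r was 0.84, 0.82 and 0.81. A group of 4 strains (CC044, CC049, CC061 and CC062) were among the 10 highest in all 3 tissues, and 6 (CC023, CC025, CC036, CC043, CC045 and CC057) among the 10 lowest. Ranked by r, Akr1e1 stood 3rd of 7951 genes for liver and lung, 10th of 7975 for liver and kidney and 19th of 9513 for lung and kidney.

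**Figure D2:**
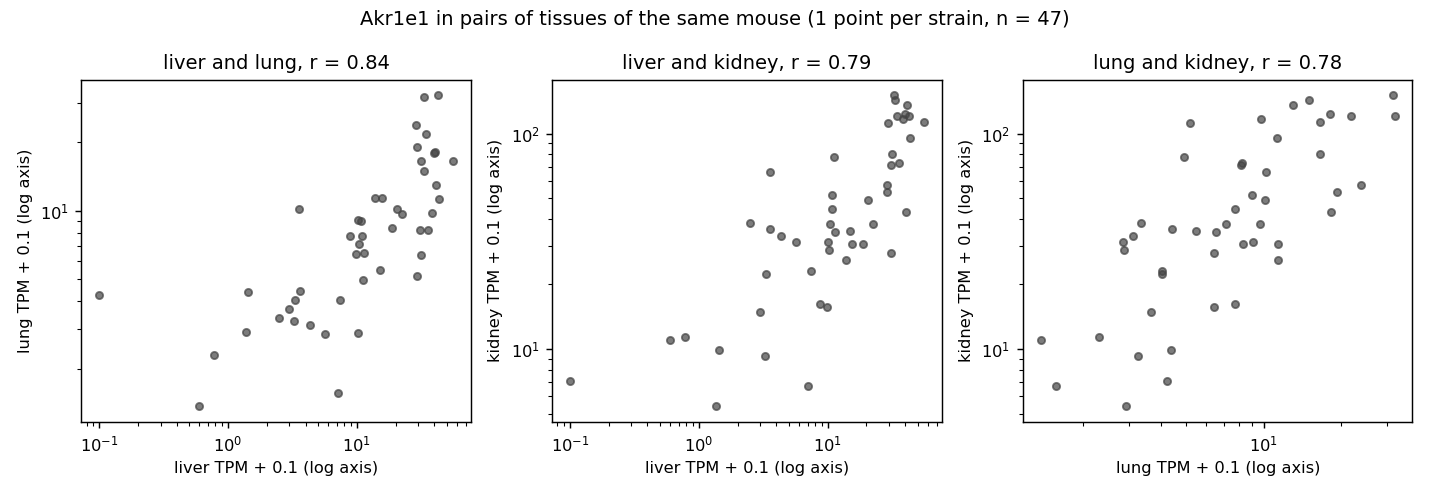
Akr1e1 TPM plus 0.1 in pairs of tissues of the same mouse on log axes, 1 point per strain (n = 47), with r of the rank normal values. The points follow a rising band in each panel (r = 0.84, 0.79 and 0.78), and the liver at 0 TPM is CC033.

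No wide gap divided the strains by their level of Akr1e1. The best split of its log2 level into a low and a high set left a gap smaller than the SD inside either set in each tissue. A small gap cannot tell a continuous spread from overlapping groups of strains. Within the low and the high set, formed on the tissue outside the pair, r was 0.66 and 0.67 for liver and lung (n = 27 and 20), 0.59 and 0.53 for liver and kidney (n = 24 and 23), and 0.54 and 0.61 for lung and kidney (n = 21 and 26). The permutation p ran from 0.00012 to 0.0122 over these 6 values.

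The Akr1c genes shared less of their strain order between tissues. The share of genes whose r between tissues passed an adjusted p of 0.1 was 12.7% (liver with lung), 22.8% (liver with kidney) and 16.8% (lung with kidney), and the members that passed, with Akr1e1 among them, were 2 of 6, 5 of 6 and 2 of 5. Akr1c13 passed in all pairs (r = 0.51, 0.41 and 0.43, permutation p = 0.00025, 0.0041 and 0.0028). Akr1c19 passed for liver and kidney (r = 0.36, permutation p = 0.013, adjusted p = 0.071), as did Akr1c21 (r = 0.37, permutation p = 0.011, adjusted p = 0.064) and Akr1c12, treated with its 2 sets of strains further on. Akr1c14, abundant in all 3 tissues, gave r of 0.10, 0.07 and 0.03, with 95% intervals from -0.19 to 0.38, -0.22 to 0.35 and -0.26 to 0.31.

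The neighbours did not pass as followers of Akr1e1 in any tissue. With limma on rank normal values, the Akr1e1 value of the same library as covariate and adjustment over all genes, 0 of 7 Akr1c genes tested in liver, 0 of 5 in lung and 0 of 6 in kidney passed an adjusted p of 0.1. Over all genes, 0% of 8622 passed in liver, 0.00834% of 11993 (1 gene) in lung and 0% of 10450 in kidney. At an unadjusted p under 0.05 the counts were 1 (Akr1c12), 0 and 2 Akr1c genes and 594, 1154 and 829 genes in all, or 6.89%, 9.62% and 7.93%.

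**Figure D3:**
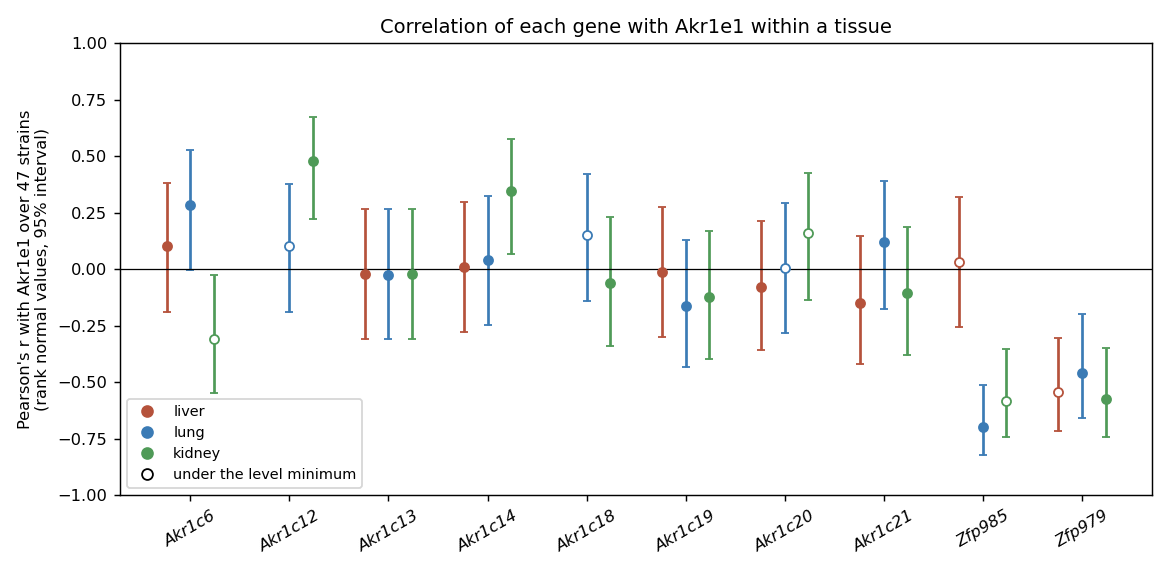
Pearson's r with Akr1e1 over 47 strains and its 95% interval for 8 Akr1c genes, Zfp985 and Zfp979, by tissue. Open points are genes under the level minimum or, for kidney Akr1c6, left out because 1 library formed a cluster of its own. Most Akr1c intervals hold 0, kidney Akr1c12 is the highest (r = 0.48) and Zfp985 in lung the lowest (r = -0.70); liver Akr1c12 and Akr1c18 are left out because their values fall into 2 sets of strains.

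Akr1c12 in kidney came nearest, with r = 0.48 (95% interval 0.22 to 0.67, rho = 0.50, permutation p = 0.00063 and 0.00041, r = 0.43 without the 2 farthest strains) and an adjusted p of 0.58 over all genes. Akr1c14 in kidney had r = 0.35 (0.07 to 0.58, permutation p = 0.017, adjusted p = 0.61). Akr1c6 in lung had r = 0.28 (-0.00 to 0.53, permutation p = 0.054, adjusted p = 0.53). In kidney Akr1c6 was outside the fit, because 1 library formed a cluster of its own, and 14 kidneys had 3 counts or fewer. There r had the other sign, at -0.31 (-0.55 to -0.02, permutation p = 0.034). For Akr1c21, the closest gene to Akr1e1 on the chromosome, r was -0.15 (liver), 0.12 (lung) and -0.10 (kidney), and the upper bounds of the intervals were 0.15, 0.39 and 0.19. Akr1c13 gave r of -0.02 in each tissue, with bounds of -0.31 and 0.27.

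A test of the difference itself, the slope on Akr1e1 between 2 tissues of a strain, called no Akr1c gene in any of the 3 pairs of tissues (limma, 5, 5 and 4 genes tested), and 0% of 7950, 7974 and 9512 genes passed. The smallest unadjusted p of a member was 0.17. Outside the family, 10 protein-coding genes were annotated within 1 Mb of the cluster. Of the 7 present in the files, 3 were tested in liver and 4 each in lung and kidney, and none passed; r ran from -0.20 to 0.29.

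The single gene that passed the limma fit on Akr1e1 was Zfp985 in lung, a zinc finger gene of distal chromosome 4. Its r with Akr1e1 was -0.70 (95% interval -0.82 to -0.51, rho = -0.77, permutation p = 1e-05 for both, the smallest possible; limma adjusted p = 0.038), so lungs with more Zfp985 had less Akr1e1. Without the 2 farthest strains r was -0.67, with a limma adjusted p of 0.12. For Zfp979 in kidney the limma p was larger than the permutation p (0.00011 against 3e-05), so a missed call can reflect the limma test. For Zfp985 in lung the limma p was 3.2e-06. Its permutation p was the smallest possible, so the 2 tests cannot be compared there. Zfp985 had 0, 1.08 and 3.40 CPM in lung (lowest, median, highest) and 3 counts or fewer in 13 lungs. In kidney, where it was under the level minimum, r was -0.58 (permutation p = 2e-05), and in liver, where 42 libraries had 3 counts or fewer, it was 0.03. Of its 50-base windows, 77.3% occurred once in the genome and in no other coding transcript, against 98.6% for Akr1e1, so its counts are the less certain.

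Zfp979, another zinc finger gene of the same list, had the lowest r with Akr1e1 among kidney genes over the level minimum (-0.58, permutation p = 3e-05, limma adjusted p = 0.41), and r was -0.46 in lung (adjusted p = 0.41). In liver, below the level minimum, it gave r = -0.54 (permutation p = 0.00011). Of the 17 zinc finger genes of this region that were listed, 4 passed the minimum in lung and 4 in kidney, with a median r of -0.24 and -0.16, and Rex2 was listed at 0 counts in every library. None of the 50-base windows of Rex2 was unique (0%), so uniquely aligned reads could not count it and the 0 says nothing of its expression. Among genes over the level minimum, the highest r values with Akr1e1 belonged to Snhg12, Ice1 and Cenpp in liver (0.54, 0.54 and 0.51), C330018D20Rik, Plcb4 and Eif1 in lung (0.56, 0.55 and 0.55) and Sltm, Slc12a2 and Pak2 in kidney (0.60, 0.53 and 0.52). The lowest among these genes were Cdca3, A630076J17Rik and Hist4h4 in liver (-0.52, -0.52 and -0.51), 9030624J02Rik and Rpp21 after Zfp985 in lung (-0.59 and -0.54), and Tmem51os1 and Hist1h1e after Zfp979 in kidney (-0.57 and -0.53). Apart from Zfp985, none of these passed the limma adjusted p, and no gene was among the 25 largest absolute r in all 3 tissues.

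Enzymes of glycogen handling did not pass as correlates of Akr1e1 either. Of 28 listed genes, 19 were tested in liver, 22 in lung and 22 in kidney, 0 passed, and the median r was 0.04, 0.03 and 0.05. The largest were Pgm2l1 in liver (r = 0.38, adjusted p = 0.63), Gyg in lung (-0.39, adjusted p = 0.43) and G6pc in kidney (0.32, adjusted p = 0.61). Between tissues, 18 of 25 were called in liver against lung (72%, against 55% of all genes; 10 higher in liver), 12 in liver against kidney (48%, against 36.4%) and 14 in lung against kidney (56%, against 46.1%). G6pc, the last enzyme of glucose release, and Gys2, the liver glycogen synthase, were 9.44 ± 0.16 and 9.41 ± 0.15 log2 units higher in liver than in lung.

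Other reductases and steroid enzymes also differed by tissue. Of 11 other aldo-keto reductases and related Kcnab subunits, 6 were tested, of which 6 were called in liver against lung (55% of all genes), 4 in liver against kidney (36.4% of all genes) and 6 in lung against kidney (46.1% of all genes). Akr1d1, the steroid ring reductase of bile acid synthesis, was 10.10 ± 0.13 log2 units higher in liver than in lung, and Akr7a5 3.83 ± 0.06; Akr1b10 was 3.06 ± 0.09 and Akr1a1 1.54 ± 0.04 log2 units higher in kidney than in liver. Of 30 hydroxysteroid and steroid-ring enzymes, 20 were tested and 17 were called in liver against lung, with 16 higher in the liver (85%, against 55% of all genes). In liver against kidney 18 were called, 14 of them higher in liver (90%, against 36.4%), and in lung against kidney 15, 14 of them higher in kidney (75%, against 46.1%). Hsd17b6 and Hsd3b5 were 10.60 ± 0.13 and 10.42 ± 0.24 log2 units above lung, and Ugt2b38 and Hsd3b2 were 9.98 ± 0.24 and 6.14 ± 0.19 higher in kidney than in lung. With Akr1e1 as covariate, 0 genes of either list passed in any tissue.

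One pair of Akr1c genes varied together in liver and in kidney. Over 46 pairs of Akr1c genes (21 in liver, 10 in lung, 15 in kidney), 2 passed an adjusted p of 0.1 over all genes with each of the pair as covariate in turn, and the median r was 0.05. Both were Akr1c13 with Akr1c19, neighbours on chromosome 13. In liver r was 0.79 (95% interval 0.65 to 0.88, rho = 0.83, permutation p = 1e-05 for both, adjusted p = 0.00061 and 0.00063). In kidney r was 0.68 (0.49 to 0.81, rho = 0.74, permutation p = 1e-05, adjusted p = 0.039 and 0.041). Among all genes of the same fits, 0.371% passed with Akr1c13 and 0.0348% with Akr1c19 in liver, and 0.00957% (1 gene, the partner) with either in kidney. In lung r was 0.42 (permutation p = 0.0033, adjusted p = 0.55 and 0.66).

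In liver, Akr1c12 and Akr1c18 each split the strains into 2 sets, and the sets were the same strains. This was seen in the values, so the strains were chosen by them and no test between the sets is given. A set of 12 livers (CC002, CC016, CC020, CC024, CC028, CC033, CC035, CC036, CC039, CC041, CC043 and CC059) had 1.70 to 7.38 CPM of Akr1c12 (1 to 70 counts), and the other 35 had 34.6 to 80.2 CPM (58 to 2249 counts). The same 12 livers had 14.4 to 253.5 CPM of Akr1c18 (61 to 1182 counts), and the other 35 had 0 to 0.744 CPM (0 to 7 counts). No liver was intermediate, and none was low or high for both.

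**Figure D4:**
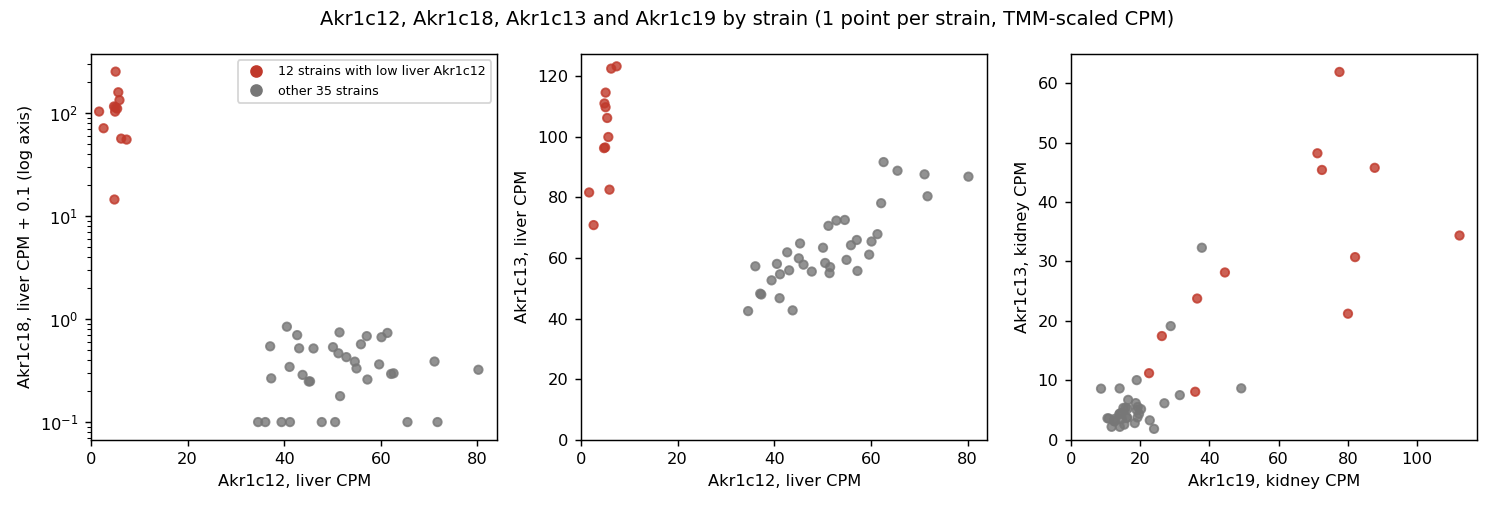
TMM-scaled CPM of Akr1c12 against Akr1c18 and Akr1c13 in liver, and of Akr1c19 against Akr1c13 in kidney, 1 point per strain, the 12 strains with low liver Akr1c12 in red and the other 35 in grey. The red strains are those above 14 CPM of Akr1c18, Akr1c13 rises with Akr1c12 among the grey strains, and red strains hold 10 of the 12 highest kidney values of Akr1c13.

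Single strains show the pattern. The liver of CC039 had 5.11 CPM of Akr1c12 and 253.5 CPM of Akr1c18, and the liver of CC028 had 5.43 and 111 CPM. CC041 had the least Akr1c18 of the 12, with 14.4 CPM beside 4.87 CPM of Akr1c12. All 3 livers with the most kidney marker RNA (CC033, CC035 and CC036) were in this set. Without them, which was tried after the data were seen, the sets held 9 and 35 strains, with 2.62 to 6.27 against 34.6 to 80.2 CPM of Akr1c12 and 14.4 to 253.5 against 0 to 0.744 CPM of Akr1c18. The summed kidney markers of those 9 livers were 15.3 to 153.7 CPM and overlapped with the 4.64 to 183.0 CPM of the other 35. Akr1c18 was higher in the liver than in the kidney of the same mouse in 9 of the 12 strains and in 1 of the 35.

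Akr1c13 was not low where Akr1c12 was. It had 70.9 to 123 CPM in the 12 livers and 42.4 to 91.7 CPM in the others, and 9 of the 12 highest livers for Akr1c13 were of this set. The sum of Akr1c12 and Akr1c13 was 73.5 to 130.7 CPM in the 12 livers and 77.0 to 167.1 CPM in the others. It does not depend on which near copy a uniquely aligned read is given to, but it leaves out reads that align to both. Of the 50-base windows of Akr1c12 and Akr1c13, 70.6% and 70.5% were unique to the gene and 28.5% and 29.5% were shared with the other. Uniquely aligned reads thus cover only part of each gene, and the level of each is uncertain. For Akr1c18, 99.4% of windows were unique. Whether the loss or placing of reads sets the values of Akr1c12 was not tested.

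Correlations were therefore taken within the sets. Over all 47 livers no r is printed for Akr1c12, since its values fall into 2 sets. The counts of genes and pairs given above do include its r over all strains. In the 35 strains Akr1c12 rose with Akr1c13 (r = 0.82, permutation p = 1e-05, adjusted p = 6e-05 over 30 values). The 30 values are pairs picked after the data were seen, in sets cut on Akr1c12. Some of the pairs, such as Akr1c13 with Akr1c19, already correlated over all strains. Their adjusted p is therefore not comparable with that over all genes. In the 12 strains r was 0.68 (permutation p = 0.015, adjusted p = 0.050). That value rests on few counts: the lowest and highest livers, CC033 and CC036, had 1 and 10 counts of Akr1c12. Both were among the livers with most kidney marker RNA, and r was not redone without them. With Akr1c19, Akr1c12 also rose in the 35 strains (r = 0.69, adjusted p = 6e-05), and in the 12 r was 0.10. With Akr1e1 in liver r was 0.04 and 0.20 (adjusted p = 0.92 and 0.42), with Akr1c6 0.54 and 0.39 (adjusted p = 0.16 and 0.061), and with Akr1c12 in kidney 0.17 and 0.26 (adjusted p = 0.78 and 0.27).

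In kidney, most of the same strains were high for Akr1c13 and Akr1c19. With 12 strains in the set and 35 in the rest, a few of any 12 highest or lowest fall in the set by chance. Such counts were not taken over all genes. Small ones, such as 5 for kidney Akr1c18 or 4 for kidney Akr1c21, therefore show no pattern by themselves. Akr1c13 had 8.05 to 61.9 CPM in the kidneys of the 12 strains and 1.81 to 32.3 CPM in the rest, and Akr1c19 22.6 to 112 CPM against 8.69 to 49.2 CPM. For each of these genes, 10 of the 12 highest kidneys were of this set, whereas for Akr1c18 5 of the 12 highest were, with 0.622 to 247 CPM in the set. For Akr1c12 in kidney, 0 of the 12 highest and 7 of the 12 lowest were. For Akr1c14, 7 of the 12 lowest and 3 of the 12 highest kidneys were, with medians of 269 CPM in the set and 477 CPM in the rest. For Akr1c6, at low levels in kidney, 6 of the 12 highest and 2 of the 12 lowest were, and for Akr1c21 4 and 0. Of the Akr1c6 livers, 8 of the 12 lowest belonged to these strains, with ranges of 482 to 2019 and 1069 to 2028 CPM. For Akr1e1 the ranges overlapped in each tissue, with 4 of the 12 lowest livers, 4 of the 12 lowest lungs and 6 of the 12 lowest kidneys in the set, and 1, 1 and 0 of the 12 highest. The r of kidney Akr1c12 with kidney Akr1e1, 0.48 over all strains, was 0.33 in the 12 (permutation p = 0.30) and 0.36 in the 35 (permutation p = 0.033, adjusted p = 0.091 over 30 values).

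Within the sets, the r of Akr1c13 between liver and kidney was not positive. It was -0.33 in the 12 and -0.09 in the 35 strains (permutation p = 0.30 and 0.59), against 0.41 over all. Between liver and lung it was -0.11 in the 12 (permutation p = 0.74) and 0.30 in the 35 (permutation p = 0.078), against 0.51 over all, and lung with kidney was not tested within the sets. For Akr1c19 between liver and kidney r was 0.09 and -0.05, against 0.36. The pair of Akr1c13 and Akr1c19 kept its sign within the sets, with r of 0.43 (n = 12, permutation p = 0.17) and 0.75 (n = 35, permutation p = 1e-05) in liver, and 0.60 (permutation p = 0.038) and 0.41 (permutation p = 0.015) in kidney. Akr1e1 kept its r between liver and kidney, at 0.89 and 0.77, and between liver and lung, at 0.79 and 0.84.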

How the data were processed

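RNA was measured by RNA-seq in liver, lung and kidney of a single male per CC strain (47 strains). Per the study's methods, the authors depleted ribosomal RNA, sequenced 50-base single ends, filtered reads, and quantified uniquely aligned reads with RSEM and STAR 2.5.3a on strain pseudo-genomes of Build37 with the C57BL/6J RefSeq annotation. The deposited expected counts (estimated reads per gene, rounded here to whole numbers) and the deposited TPM were used, 1 library per file. The founder alleles of a strain and the batch were not in the labels, so the study's batch term was left out. Uniquely aligned reads understate genes with near copies.

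Genes over 1 CPM in at least 30% of libraries were tested between tissues with limma 3.58.1 voom (R 4.3.3) on TMM-scaled counts (edgeR 4.0.16), with strain as a block. The block comes from the labels: the 3 libraries of a strain are from 1 mouse, and their deviations from the tissue means correlated with a median r of 0.17, 0.17 and 0.21 for liver and lung, liver and kidney, and lung and kidney, against -0.00, -0.01 and -0.01 between strains. Correlations used TMM-normalized TPM, rank inverse normal within a tissue, of genes over 1 TPM in more than 50% of libraries without a single-library cluster; p-values of single r and rho came from 100000 permutations (numpy 2.4.6), those of r between tissues over all genes from the t distribution, and intervals (95%) from Fisher's z. P-values measure the spread between mice. The scripts were tested on simulated data with known answers. Alternatives were other scalings, tests (edgeR, DESeq2 1.42.0), filters, transformations and strain sets. Leaving out 5 libraries that stood out in markers of another tissue, the unfiltered pairs and the 2 sets of strains of liver Akr1c12 were added after the data were seen. The genes named were all members, the 3 highest and 3 lowest r with Akr1e1 per tissue, Zfp985 and Rex2, listed genes by counts with the largest changes, and neighbours within 1 Mb. The members and lists were chosen with earlier results of these data known.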

Additional observations from a re-analysis of the deposited data

How the results depend on the processing

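Members called between tissues stayed within 6 to 7 for liver and kidney, 7 to 10 for liver and lung and 7 to 8 for lung and kidney over the 11 alternatives, the one without the 5 libraries included. Without the strain block, which ignores the pairing of libraries by mouse, the Akr1e1 differences were 2.29, -0.77 and -3.05 log2 units for liver minus lung, liver minus kidney and lung minus kidney, the counts of members called were 9, 7 and 8, and no call on Akr1e1 changed. On total counts, log2(TPM + 1) and log2(TPM + 0.1), Akr1e1 in liver minus lung fell to 0.84, 0.58 and 0.53, under the fold for a call, and liver minus kidney became -1.72, -1.64 and -1.85, past it; the median of all genes moved to -1.44, -1.21 and -1.52 for liver minus lung, and to -0.95, -0.72 and -0.94 for liver minus kidney. On these 3 scales Akr1a1 in liver minus lung turned to -0.068, -0.18 and -0.18, and Akr1c21 was -0.0055 on log2(TPM + 1).

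The r of Akr1e1 between tissues ran from 0.53 to 0.89 over all alternatives, and each had a permutation p under 0.05. Without TMM, when library-wide shifts stay in the values, 1 Akr1c gene in liver (Akr1c12) and 2 in kidney (Akr1c12 and Akr1c14) passed with Akr1e1, beside 277 and 4129 genes in all. The count of Akr1c pairs passing in liver became 3 on log2(TPM + 1), 13 without TMM, 2 with 3 principal components removed and 3 with no expression filter, in lung 3 without TMM, and in kidney 2 without TMM. Without TMM, r also turned to 0.49 for Akr1c6 with Akr1c13, 0.34 for Akr1c6 with Akr1c19, 0.39 for Akr1c13 with Akr1c20 and 0.28 for Akr1c19 with Akr1c20 in liver, and to 0.27 for Akr1c14 with Akr1c19 in lung. Zfp985 in lung kept its sign in all 10 alternatives and lost its call in 4: without TMM (r = -0.53), without the 2 farthest strains (-0.67), and in the low and high Akr1e1 strains (-0.40 and -0.56). Apart from fewer strains in the last 3, the cause was not tested. Genes near 3 counts, such as Akr1c20 in lung and kidney, are limited by depth.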
